A study of Bos taurus and Ovis aries and Capra hircus with 27 samples.

Results

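Mitochondrial carriers, the SLC25 family, were examined in goat heart, liver and kidney at the level of mRNA. Members were chosen by protein sequence alone. A goat gene model of the expression table became a member when its deposited protein was 250 to 700 residues long, its identifier carried no copy suffix, and the carrier motif P-x-[DE]-x-x-[KR]-x-[KR] occurred in it at least 2 times without overlap. This rule found 30 members among 22131 goat models. The series holds 27 mRNA libraries from heart, liver and kidney of cattle, sheep and goat, of which the 9 goat libraries were used here, 3 from each tissue. The goats were of an indigenous strain and about 3 years old, and the study's methods describe unrelated adult females. No group received a treatment, so the comparison is between tissues. The values are FPKM, fragments relative to transcript length and to the mapped fragments of the library, so levels may be set side by side between genes of different length.

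Mitochondrial carriers are proteins of the inner mitochondrial membrane. Each is built of repeats of a pair of membrane helices, and the motif used here lies at the end of the odd-numbered helix of each repeat. Together they move ADP and ATP, phosphate, keto acids, amino acids, carnitine esters, protons and metal ions between the matrix and the cytosol, which ties oxidative phosphorylation, fatty acid oxidation, urea synthesis and gluconeogenesis to the rest of the cell. Different tissues are known to use different members for the same substrate.

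Of the 7631 models without a copy suffix and with a protein in this length range, 7337 had no match to the motif and 264 had 1 match, just short of the rule. Among the 30 members, 17 had exactly 2 matches and 13 had 3 or more. The label was then checked by aligning the members to one another. The proteins of 23 members formed a group linked by alignments over at least 50% of the query protein at an E value of at most 1e-05. Not every pair in it aligned so. GOAT_ENSBTAP00000022292 and GOAT_ENSP00000400101, the longest, reached 50% of their own length only with each other. In each of the 23 at least 1 pair of motif matches stood a repeat length apart, 85 to 130 residues or double that. The other 7 members aligned to no other member and had no matches at that spacing, so for them the sequence goes against the family label. They are kept in the counts as the rule requires and are described apart, and the 23 are called aligned members below. The map of motif matches shows both sets. No gene names come with the table, so members are given by identifier, and what each protein transports was not assigned from it.

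**Figure D1:**
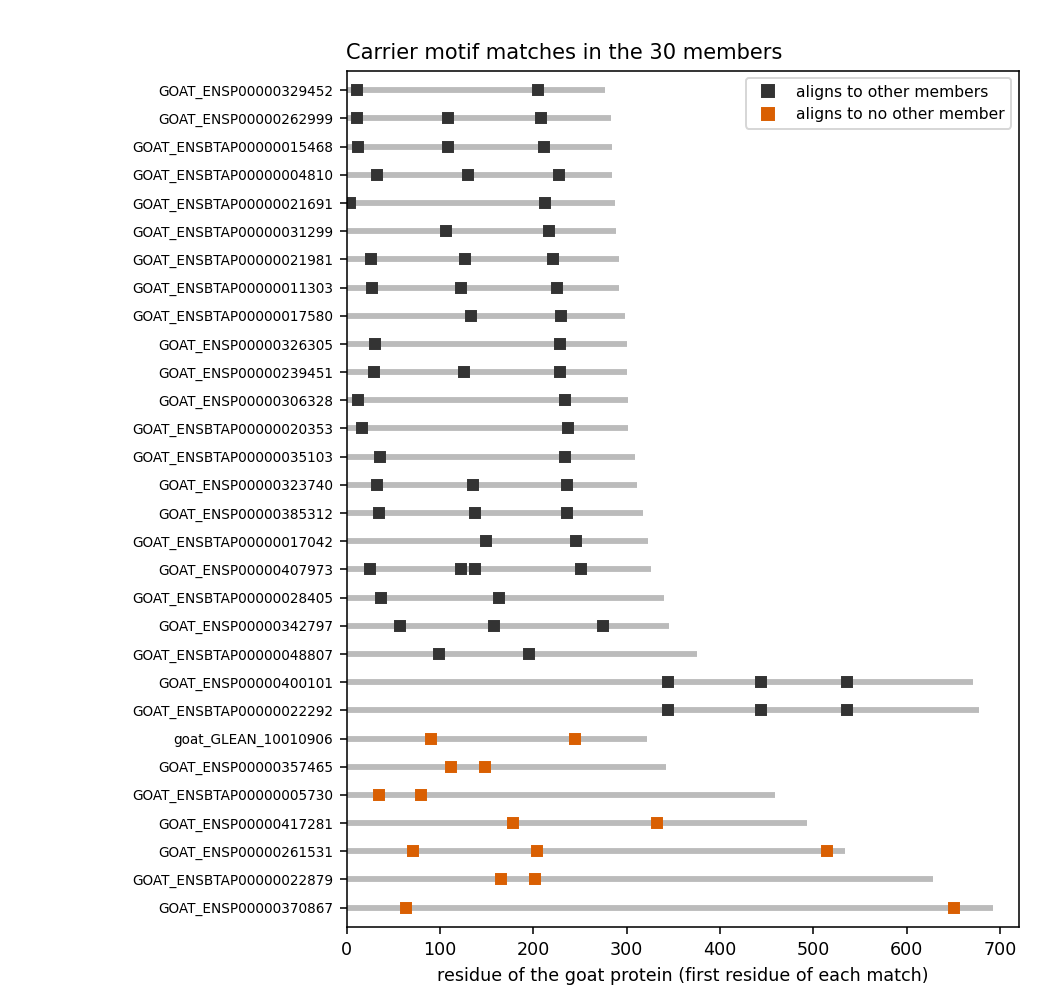
Position of each motif match (square, first residue) along the protein (grey bar, in residues) of the 30 members; black squares mark the 23 members that align to other members and orange squares the 7 that align to none. The black squares fall into columns about a repeat apart, and in the longest aligned members, of 671 and 678 residues, the first match is at residue 344 in both.

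Of the 23 aligned members, 21 had proteins of 277 to 376 residues, and they lay on 22 scaffolds of the goat assembly. GOAT_ENSBTAP00000004810 (scaffold 1048, 649684 to 652493, minus strand) and GOAT_ENSP00000323740 (scaffold 1048, 676605 to 682422, minus strand) were the pair that shared a scaffold, 24111 bp apart. GOAT_ENSP00000239451 (scaffold 1356, 2115870 to 2116775, plus strand) was the aligned member whose genomic span of 906 bp was that of its coding length of 903 bp, a model with no room for an intron. A run of 3 arginines and 3 methionines, the signature of ADP/ATP carriers, which exchange cytosolic ADP for ATP made in the matrix, was present in GOAT_ENSBTAP00000017580 (scaffold 604, 3887454 to 3891307, plus strand) and GOAT_ENSBTAP00000017042 (scaffold 199, 5929073 to 5969415, minus strand), and these proteins were 73.1% identical over 294 residues. Positions are as the deposited protein file gives them. That file names no build, and the study's methods name CHIR_1.0 for goat.

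Across goat models, libraries of the same tissue correlated at r = 0.918 to 0.985 on the log2 scale, and libraries of different tissues at 0.551 to 0.667. Summed FPKM was 574638 to 828807 per library. The tables held no read counts, so depth is unknown and no counting error can be given. Tests used log2(FPKM + 1) in limma, fitted over the 13634 goat models that exceeded 0.5 FPKM in 3 or more libraries, with Benjamini-Hochberg adjustment and a threshold of 0.05, and a log2 difference is always on this scale. In the bulk tissue, fewer cells of a type and less RNA per cell cannot be told apart, and whether the labels fit marker genes of the tissues was not tested, because the identifiers carry no names.

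Of the 30 members, 25 passed the filter on low values, and 2 of the aligned members passed only through liver, so that a difference was built in for them. Heart against liver, 10 members were higher in heart and 5 in liver, which is 40.0% and 20.0% of those tested, beside 29.6% and 19.6% of all models. Heart against kidney, 9 were higher in heart and 6 in kidney, or 36.0% and 24.0%, beside 17.9% and 45.3% of all models. Liver against kidney, 7 were higher in liver and 10 in kidney, beside 13.4% and 51.6% of all models. Without the 2 members that passed only through liver, 5 of 23 were higher in liver than in kidney and 3 of 23 higher in liver than in heart, or 21.7% and 13.0%.

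The comparison with kidney depends on how libraries are scaled. Over all models tested, the median log2 difference was -0.55 for heart against kidney and -0.69 for liver against kidney, and 0.10 for heart against liver. When libraries were rescaled so that the typical model had the same level in each (median ratio scaling), the counts of members became 9 and 8 for heart and liver (27.0% and 26.8% of all models), 11 and 2 for heart and kidney (29.0% and 29.1%), and 13 and 6 for liver and kidney (26.6% and 25.3%). Without the same 2 members, 11 of 23 were then higher in liver than in kidney, or 47.8%. The median log2 difference of the aligned members that passed the filter was 0.28, 0.07 and 0.05 in the 3 pairs, beside the medians of all models above. Some values with kidney are therefore given below also relative to the median of all models. Where neither that nor another scaling is named, a difference with kidney is on the deposited scale and includes this shift.

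**Figure D2:**
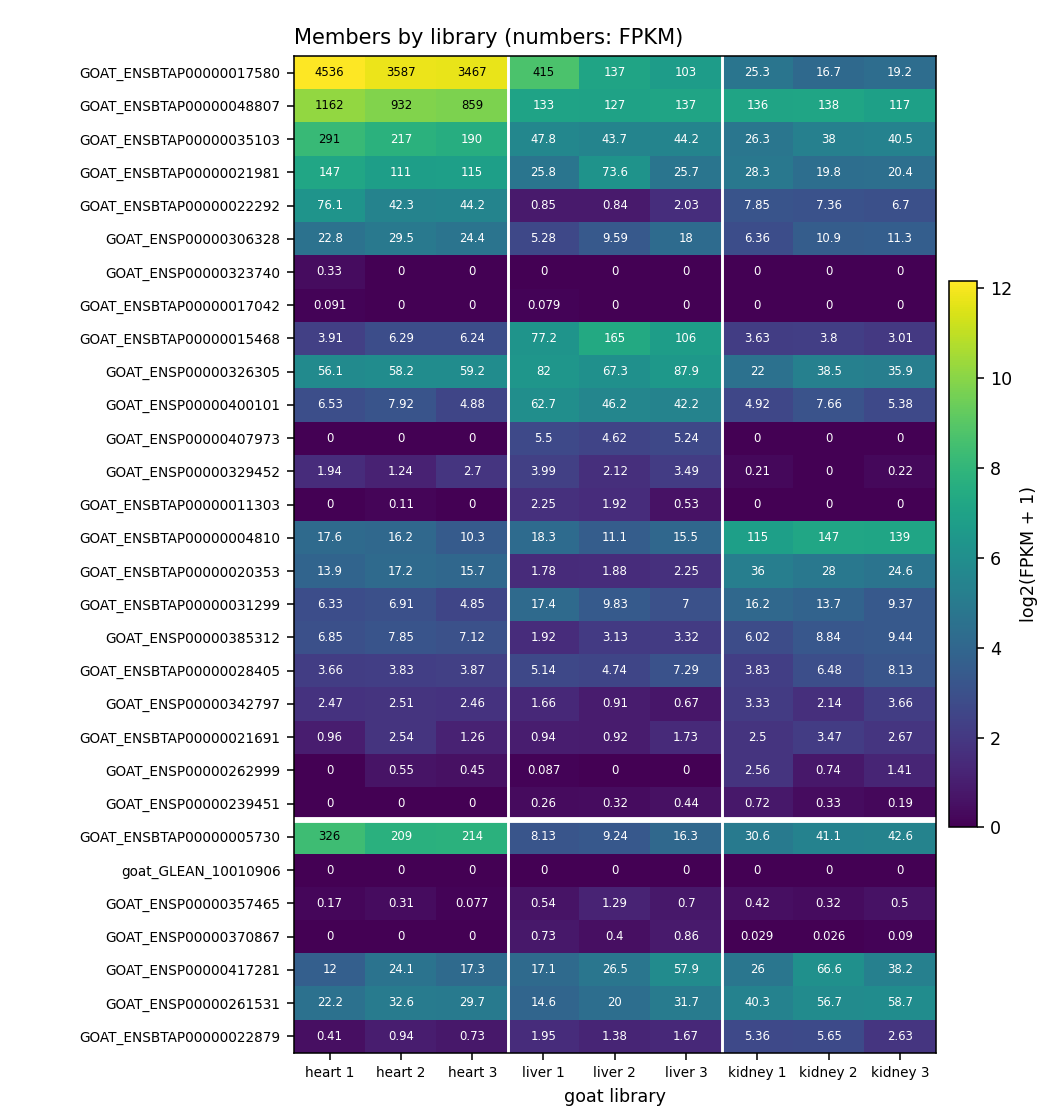
FPKM of the 30 members (rows) in the 9 goat libraries (columns), printed in each cell and coloured by log2(FPKM + 1); rows above the white line are the 23 aligned members, ordered by the tissue with the highest mean. The top row, GOAT_ENSBTAP00000017580, runs from 4536 FPKM in heart 1 to 16.7 FPKM in kidney 2, and several rows are at 0 in whole tissues.

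**Figure D3:**
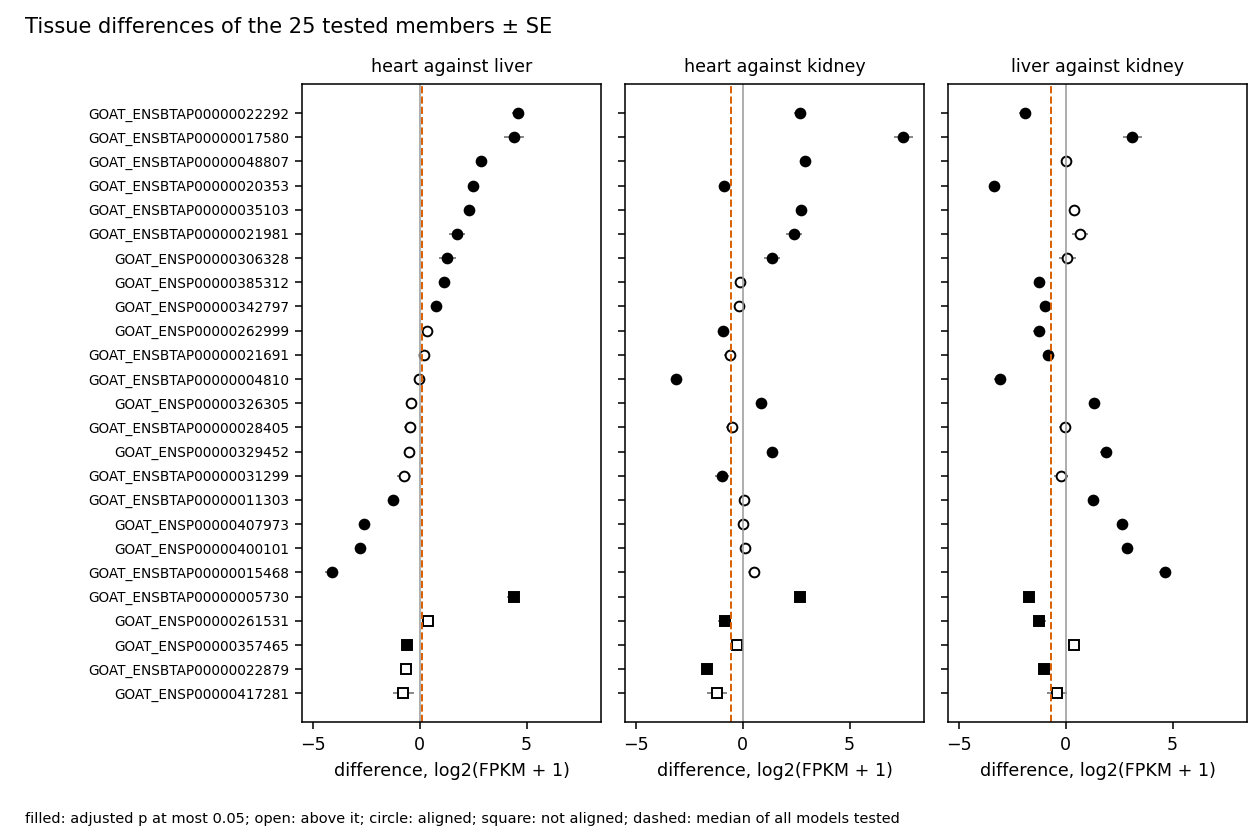
Log2 differences of the 25 tested members with their SE in the 3 tissue pairs; filled symbols have an adjusted p of at most 0.05, circles are aligned members, squares are members that align to no other, and the dashed line is the median of all models tested. GOAT_ENSBTAP00000017580 stands at 7.51 in heart against kidney, and the dashed line lies below 0 in both panels with kidney.

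The summed carrier mRNA was highest in heart, an order that rests on the abundant members with 2 motif matches. The FPKM of the 23 aligned members summed to 6356, 5050.3 and 4819 in the heart libraries, to 909, 712 and 613 in liver and to 448, 491 and 458 in kidney, and no tissue overlapped another. Summed over the 13 members with at least 3 motif matches, the tissues overlapped, at 221 to 283 FPKM in heart, 211 to 328 FPKM in liver and 213 to 254 FPKM in kidney. As means the sums of the aligned members were 5408 ± 829 FPKM in heart, 745 ± 150.5 FPKM in liver and 466 ± 22.6 FPKM in kidney (SD, n = 3). Most of the heart sum came from a single model. GOAT_ENSBTAP00000017580, with the ADP/ATP carrier signature, made up 71.0% to 71.9% of it in heart, 16.8% to 45.7% in liver and 3.41% to 5.64% in kidney. Without this model and GOAT_ENSBTAP00000048807, the next highest in heart, the sums were 493 to 657 FPKM in heart, 361 to 448 FPKM in liver and 286 to 337 FPKM in kidney, without overlap on the deposited scale. Heart and liver overlapped, however, with every library brought to a common total (399 to 539.8 and 405 to 518 FPKM) and under median ratio scaling (524 to 849 and 413 to 601 FPKM), so for the other 21 aligned members the order of heart and liver depends on the scaling. Kidney lay below both under each of these scalings, at 296 to 366 and 221 to 222 FPKM.

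**Figure D4:**
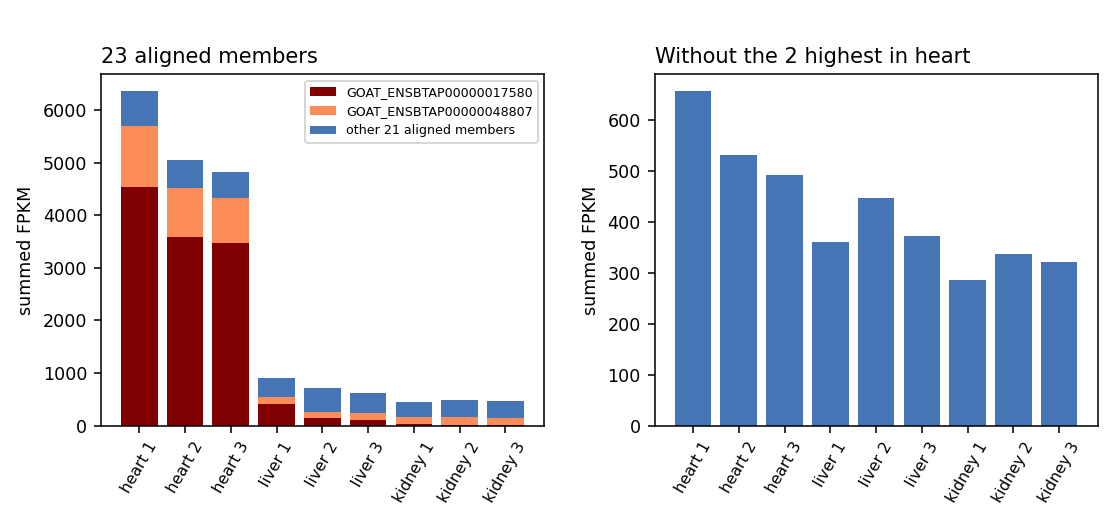
Summed FPKM of the aligned members in each goat library; left, all 23 with the 2 highest in heart shown as segments of their own, right, the other 21. The heart bars on the left reach 4819 to 6356 FPKM, and those on the right 493 to 657 FPKM.

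GOAT_ENSBTAP00000017580 encodes a protein of 298 residues. It was at 4536, 3587 and 3467 FPKM in heart, at 415, 137 and 103 FPKM in liver and at 25.3, 16.7 and 19.2 FPKM in kidney. It ranked 22 to 24 among the 22131 models in the heart libraries. Its mean was 17.7-fold higher in heart than in liver and 189.5-fold higher in heart than in kidney, and the log2 differences were 4.40 ± 0.45 (SE, adjusted p = 3.503e-05) and 7.51 ± 0.45 (adjusted p = 1.117e-06), the latter 8.05 relative to the median of all models. Liver against kidney, the difference was 3.1 ± 0.45 (adjusted p = 0.0002887). The first liver library stood apart from the other liver libraries at this model. Without it the difference of heart against liver was 5.0 and that of liver against kidney 2.5, both still past the threshold.

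GOAT_ENSBTAP00000048807 (scaffold 212, 1433265 to 1439170, minus strand) encodes 376 residues. It was at 1162, 932 and 859 FPKM in heart, at 133, 127 and 137 FPKM in liver and at 136, 138 and 117 FPKM in kidney. Heart stood apart, whereas liver and kidney overlapped. The log2 difference was 2.87 ± 0.18 against liver (adjusted p = 1.303e-06) and 2.90 ± 0.18 against kidney (adjusted p = 1.544e-06), 3.45 relative to all models. Under median ratio scaling liver was also above kidney, by 0.92 (adjusted p = 0.009268). It was at 117 FPKM or more in every library and took 17.8% to 18.5% of the aligned sum in heart, 14.6% to 22.3% in liver and 25.5% to 30.4% in kidney.

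A further 4 aligned members were higher in heart than in both other tissues. The share of all models above both other tissues was not computed for any tissue. These counts, here and below, therefore describe the members only. GOAT_ENSBTAP00000035103 (scaffold 244, 36385 to 38576, plus strand; 309 residues) was at 291, 217 and 189.7 FPKM in heart, at 47.8, 43.7 and 44.2 FPKM in liver and at 26.3, 38.0 and 40.5 FPKM in kidney, with log2 differences of 2.31 ± 0.23 (adjusted p = 2.68e-05) and 2.70 ± 0.23 (adjusted p = 9.496e-06). GOAT_ENSBTAP00000021981 (scaffold 1176, 340796 to 353556, plus strand; 292 residues) was at 147, 111 and 115 FPKM in heart, at 25.8, 73.6 and 25.7 FPKM in liver and at 28.3, 19.8 and 20.4 FPKM in kidney, with differences of 1.72 ± 0.38 (adjusted p = 0.00435) and 2.40 ± 0.38 (adjusted p = 0.0004809). For both, every heart library was above every other library, and in the latter the second liver library stood above the other liver libraries. GOAT_ENSP00000306328 (scaffold 141, 767677 to 783426, minus strand; 302 residues) was at 22.8, 29.5 and 24.4 FPKM in heart, at 5.28, 9.59 and 18 FPKM in liver and at 6.36, 10.9 and 11.3 FPKM in kidney. Its difference against kidney was 1.37 ± 0.38 (adjusted p = 0.01062). Its difference against liver, 1.29 ± 0.38 (adjusted p = 0.01809), was lost without heart 2 (adjusted p = 0.0634), without liver 2 (adjusted p = 0.05063) and when every library was brought to a common total (adjusted p = 0.08724). The other member of this group, GOAT_ENSBTAP00000022292, is described with its close relative below.

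Liver was above both other tissues at 4 aligned members, 2 of which passed the filter only through liver. GOAT_ENSBTAP00000015468 (scaffold 717, 268123 to 285689, minus strand; 284 residues) was at 77.2, 165 and 106 FPKM in liver, at 3.91, 6.29 and 6.24 FPKM in heart and at 3.63, 3.8 and 3.01 FPKM in kidney. Every liver library was above every heart and kidney library, and its mean in liver was 21.2-fold that in heart and 33.4-fold that in kidney. The log2 differences were -4.13 ± 0.29 for heart against liver (adjusted p = 2.382e-06) and 4.64 ± 0.29 for liver against kidney (adjusted p = 1.384e-06), 5.34 relative to all models. It took 8.49% to 23.2% of the aligned sum in liver.

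GOAT_ENSP00000407973 and GOAT_ENSBTAP00000011303 were detected almost entirely in liver. GOAT_ENSP00000407973, of 326 residues and with 4 motif matches, was at 5.5, 4.62 and 5.24 FPKM in liver and was listed at 0 in all heart and kidney libraries. GOAT_ENSBTAP00000011303, of 292 residues and its closest relative with 45.9% identity, was at 2.25, 1.92 and 0.531 FPKM in liver, at 0.108 FPKM in heart 2 and listed at 0 in the other heart libraries and in kidney. Since these passed the filter only through liver, their calls add nothing to the levels, and a listed 0 may also be a failed estimate. No fold change is given against 0.

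Kidney was above both other tissues at 3 aligned members, of which 1 remained under median ratio scaling. The share of all models with this pattern was not computed. GOAT_ENSBTAP00000004810, of 284 residues, was at 115, 147 and 139 FPKM in kidney, at 17.6, 16.2 and 10.3 FPKM in heart and at 18.3, 11.1 and 15.5 FPKM in liver. All kidney libraries were above all others, while heart and liver overlapped. The log2 differences were -3.12 ± 0.25 for heart against kidney (adjusted p = 7.332e-06) and -3.1 ± 0.25 for liver against kidney (adjusted p = 8.036e-06), -2.58 and -2.40 relative to all models, and -2.45 and -2.22 under median ratio scaling. Its mean in kidney, 134 ± 16.6 FPKM, was within the spread of that of GOAT_ENSBTAP00000048807, 130.2 ± 11.6 FPKM (SD, n = 3), which was the higher of the pair in kidney 1. It took 25.7% to 30.4% of the aligned sum there, against 0.214% to 0.322% in heart and 1.56% to 2.53% in liver.

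GOAT_ENSBTAP00000020353 (scaffold 1438, 1189034 to 1207724, plus strand; 302 residues) was at 36.0, 28.0 and 24.6 FPKM in kidney, at 13.9, 17.2 and 15.7 FPKM in heart and at 1.78, 1.88 and 2.25 FPKM in liver. The 3 tissues did not overlap, with liver lowest. Liver against kidney, the log2 difference was -3.35 ± 0.19 (adjusted p = 8.831e-07), and heart against liver it was 2.48 ± 0.19 (adjusted p = 5.238e-06). Heart against kidney it was -0.87 ± 0.19 (adjusted p = 0.003465), but -0.21 under median ratio scaling (adjusted p = 0.3756), where the call was lost. GOAT_ENSP00000262999, of 283 residues, was at 2.56, 0.742 and 1.41 FPKM in kidney, at 0, 0.545 and 0.452 FPKM in heart and at 0.0867, 0 and 0 FPKM in liver. Its difference of heart against kidney, -0.91 ± 0.26 (adjusted p = 0.01326), was lost without heart 1 (adjusted p = 0.05651) and under median ratio scaling, where it was -0.63 (adjusted p = 0.0712).

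Joining each aligned member to its closest relative by alignment score gave 7 pairs with at least 60% identity. In 4 of these pairs 1 partner was too low to be tested. GOAT_ENSBTAP00000004810 and GOAT_ENSP00000262999, 63.3% identical over 267 residues, are not among the 7, since each has a higher-scoring relative. Both were tested and had their highest mean in kidney, and their ratio was not compared. How reads that fit both partners were divided was not tested. In 3 of the 7 pairs both partners were tested. For these the log2 ratio of the partners was compared between tissues by a two-sided exact permutation test, 9 tests in all. With 3 libraries a tissue, the smallest p this design allows is 0.1, so none can pass 0.05.

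In the first such pair, GOAT_ENSBTAP00000022292 (scaffold 928, 241567 to 336563, plus strand; 678 residues) and GOAT_ENSP00000400101 of 671 residues were 78.3% identical over 660 residues. Both carry a long stretch before the carrier repeats, as the map of motif matches shows, and both have the residue pair of amino acid carriers described below. GOAT_ENSBTAP00000022292 was at 76.1, 42.3 and 44.2 FPKM in heart, at 0.853, 0.843 and 2.03 FPKM in liver and at 7.85, 7.36 and 6.70 FPKM in kidney. GOAT_ENSP00000400101 was at 6.53, 7.92 and 4.88 FPKM in heart, at 62.7, 46.2 and 42.2 FPKM in liver and at 4.92, 7.66 and 5.38 FPKM in kidney. The former was higher in heart and the latter in liver, and in kidney their ranges overlapped. Heart against liver, the former differed by 4.61 ± 0.28 (adjusted p = 9.087e-07) and the latter by -2.79 ± 0.24 (adjusted p = 1.177e-05).

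The log2 ratio of these partners was 2.28 to 3.35 in heart, -5.10 to -3.84 in liver and -0.05 to 0.58 in kidney. No tissue overlapped another, and each of the 3 tissue pairs gave p = 0.1 in the exact permutation test (adjusted p = 0.113), the smallest possible. Their summed level was 49.1 to 82.6 FPKM in heart and 44.2 to 63.6 FPKM in liver, which overlapped, and 12.1 to 15.0 FPKM in kidney.

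**Figure D5:**
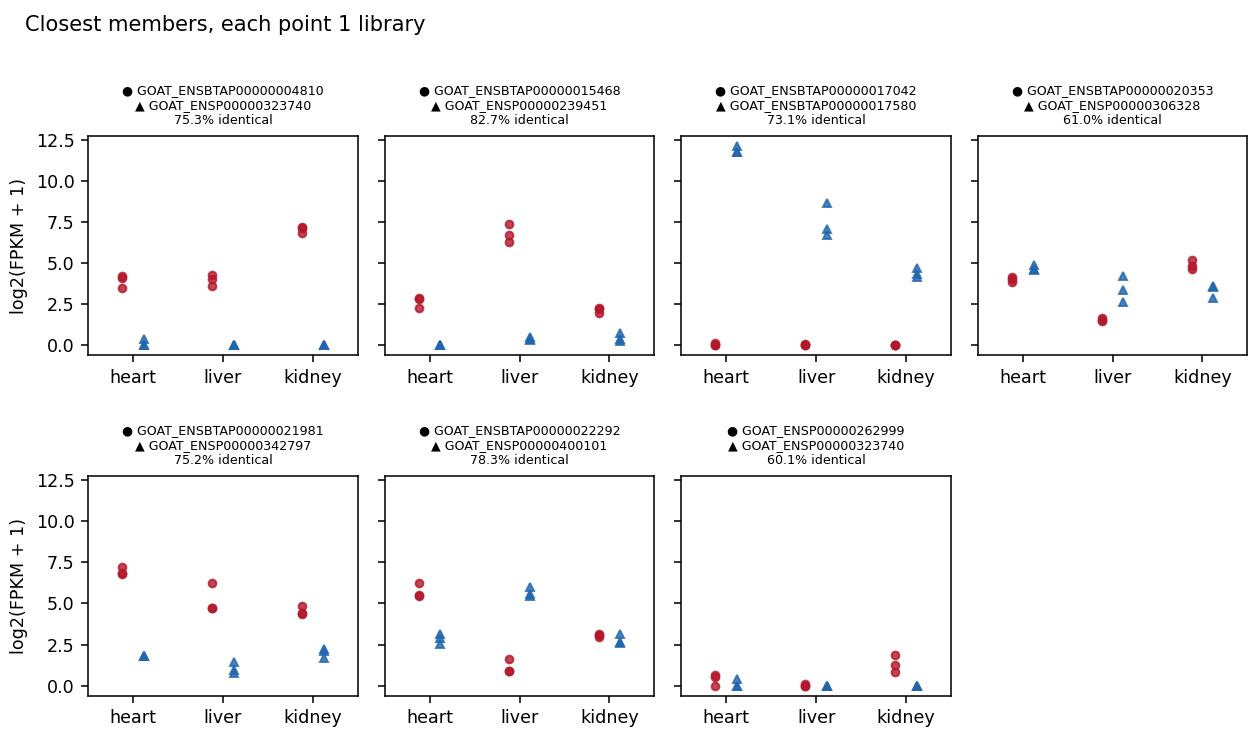
Levels, as log2(FPKM + 1), of the 7 pairs of closest relatives among the aligned members in heart, liver and kidney; circles and triangles are the partners named above each panel and each point is 1 library. In the panel of GOAT_ENSBTAP00000022292 and GOAT_ENSP00000400101 the order of the partners is opposite in heart and liver, with log2 ratios of 2.28 to 3.35 and -5.10 to -3.84.

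GOAT_ENSBTAP00000020353 and GOAT_ENSP00000306328, 61.0% identical over 300 residues, also changed places. Their log2 ratio was -0.74 to -0.60 in heart, -2.54 to -1.18 in liver and 1.05 to 2.33 in kidney, without overlap (exact permutation p = 0.1 and adjusted p = 0.113 for each tissue pair). Their summed level was 36.7 to 46.7 FPKM in heart and 35.9 to 42.4 FPKM in kidney, which overlapped, and 7.07 to 20.2 FPKM in liver. GOAT_ENSBTAP00000021981 and GOAT_ENSP00000342797, 75.2% identical over 315 residues, did not change places. The former was higher in all 9 libraries, with a log2 ratio of 5.0 to 5.41 in heart, 3.33 to 5.29 in liver and 2.2 to 2.76 in kidney. Heart and liver overlapped here (exact permutation p = 0.3, adjusted p = 0.3), and kidney stood below both (exact permutation p = 0.1, adjusted p = 0.113).

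In the other pairs 1 partner was nearly silent. GOAT_ENSBTAP00000017042, the other member with the ADP/ATP carrier signature, reached 0.0908 FPKM in heart 1 and 0.0794 FPKM in liver 1 and was listed at 0 in the other 7 libraries, whereas GOAT_ENSBTAP00000017580 was never below 16.7 FPKM. GOAT_ENSP00000239451, the model without room for an intron, is 82.7% identical to the liver member GOAT_ENSBTAP00000015468 over 283 residues. It was listed at 0 in heart, and was at 0.262, 0.322 and 0.440 FPKM in liver and 0.721, 0.325 and 0.187 FPKM in kidney. GOAT_ENSP00000323740 was at 0.327 FPKM in heart 1 and listed at 0 elsewhere. It is 75.3% identical to GOAT_ENSBTAP00000004810, its neighbour on scaffold 1048, and 60.1% to GOAT_ENSP00000262999. The neighbours thus differed in level throughout, with 10.3 FPKM as the lowest value of GOAT_ENSBTAP00000004810.

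The remaining 7 aligned members that were tested had other patterns. GOAT_ENSP00000326305 (scaffold 1497, 974712 to 1012556, plus strand; 301 residues) was at 56.1, 58.2 and 59.2 FPKM in heart, at 82.0, 67.3 and 87.9 FPKM in liver and at 22.0, 38.5 and 35.9 FPKM in kidney. Kidney was lowest, by 0.87 ± 0.23 against heart (adjusted p = 0.008796) and by 1.30 ± 0.23 against liver (adjusted p = 0.0009565). With every library brought to a common total, the former was 0.48 (adjusted p = 0.09649). Heart against liver the difference was -0.44 (adjusted p = 0.1488). That difference passed under median ratio scaling (adjusted p = 0.02163), quantile normalization (adjusted p = 0.02377) and a common total (adjusted p = 0.01183), so its pattern depends on the scaling. GOAT_ENSP00000329452, of 277 residues, was also lowest in kidney, at 0.206, 0 and 0.218 FPKM, beside 1.94, 1.24 and 2.70 FPKM in heart and 3.99, 2.12 and 3.49 FPKM in liver. Its difference of heart against liver, -0.51, passed the threshold with the replicate block (adjusted p = 0.0355) and without liver 2 (adjusted p = 0.04523). It also passed with a common total (adjusted p = 0.01615). It did not pass in the main fit, with all libraries, deposited values and no block (adjusted p = 0.1104).

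In GOAT_ENSP00000385312, of 318 residues, liver was lowest, at 1.92, 3.13 and 3.32 FPKM beside 6.85 to 7.85 FPKM in heart and 6.02 to 9.44 FPKM in kidney, and its differences were 1.14 ± 0.22 for heart against liver (adjusted p = 0.002205) and -1.26 ± 0.22 for liver against kidney (adjusted p = 0.000965). GOAT_ENSP00000342797 was at 0.671 to 1.66 FPKM in liver, 2.46 to 2.51 FPKM in heart and 2.14 to 3.66 FPKM in kidney. Its difference of heart against liver, 0.77 ± 0.22 (adjusted p = 0.01652), was lost without liver 2 (adjusted p = 0.05734), without liver 3 (adjusted p = 0.05969) and under median ratio scaling (adjusted p = 0.06611), and that of liver against kidney, -0.97 ± 0.22 (adjusted p = 0.003992), was lost under median ratio scaling (adjusted p = 0.2795).

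GOAT_ENSBTAP00000031299, of 289 residues, was at 4.85 to 6.91 FPKM in heart, 7.0 to 17.4 FPKM in liver and 9.37 to 16.2 FPKM in kidney. Heart lay below kidney by 0.98 ± 0.32 on the log2 scale (adjusted p = 0.02279), a call lost without heart 3 (adjusted p = 0.07745), without kidney 1 (adjusted p = 0.07271), without kidney 2 (adjusted p = 0.06663) and under median ratio scaling (adjusted p = 0.4719). Its difference of heart against liver, -0.74, passed with the replicate block (adjusted p = 0.01521), without liver 3 (adjusted p = 0.02643) and with a common total (adjusted p = 0.01597). It did not pass in the main fit (adjusted p = 0.08247). GOAT_ENSBTAP00000021691, of 288 residues, was at 0.915 to 3.47 FPKM in all libraries. Heart against kidney, its difference of -0.62 did not pass in the main fit (adjusted p = 0.05436). It passed with the block (adjusted p = 0.04352), without heart 2 (adjusted p = 0.01222) and without liver 3 (adjusted p = 0.0467). It also passed with a common total (adjusted p = 0.01032) and with the study's filter (adjusted p = 0.04635). Liver lay below kidney by 0.84 ± 0.25 (adjusted p = 0.01586), lost without liver 2 (adjusted p = 0.05667), without kidney 2 (adjusted p = 0.06039) and under median ratio scaling.

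GOAT_ENSBTAP00000028405, of 340 residues, was the aligned member tested that passed the threshold in no pair in the main fit. It was at 3.66, 3.83 and 3.87 FPKM in heart, at 5.14, 4.74 and 7.29 FPKM in liver and at 3.83, 6.48 and 8.13 FPKM in kidney. Liver lay above all heart libraries and overlapped kidney. The log2 differences were -0.47 ± 0.25 (adjusted p = 0.1568), -0.53 ± 0.25 (adjusted p = 0.09634) and -0.06 ± 0.25 (adjusted p = 0.857). Under median ratio scaling the first was -0.67 (adjusted p = 0.02203) and the last turned to 0.71 (adjusted p = 0.01805). Under quantile normalization the last also passed, at 0.7 (adjusted p = 0.027). With a common total, heart against liver was at -0.85 (adjusted p = 0.0242) and heart against kidney at -0.84 (adjusted p = 0.01748). Without kidney 1, heart against kidney was at -0.79 and past the threshold (adjusted p = 0.01384).

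In carriers a pair of neighbouring residues on the fourth membrane helix contacts the substrate. Glycine followed by isoleucine, valine, leucine or methionine is known from carriers of adenine nucleotides, and arginine followed by aspartate or glutamate from carriers of amino acids and carnitine. The pair was read from an alignment of the 23 proteins, and no substrate was measured. The 3 members with the glycine pair, GOAT_ENSBTAP00000017580, GOAT_ENSBTAP00000017042 and GOAT_ENSBTAP00000031299, summed to 3472 to 4543 FPKM in heart, 110.2 to 432 FPKM in liver and 28.5 to 41.5 FPKM in kidney, almost all of it from the first. The 7 members with the arginine and acidic pair summed to 146, 119 and 118 FPKM in heart, to 236, 291 and 251 FPKM in liver and to 42.3, 63.8 and 59.1 FPKM in kidney, and the tissues did not overlap. Of these 7, 5 had their highest mean in liver, including GOAT_ENSP00000407973 and GOAT_ENSBTAP00000011303, which passed the filter only through liver. Another of the 5, GOAT_ENSP00000326305, was not called for heart against liver in the main fit (adjusted p = 0.1488). The share of all models with their highest mean in liver was not computed, so this count describes the members only. The 5 members with arginine followed by glutamine, histidine, asparagine or threonine summed to 873 to 1182 FPKM in heart, 140.4 to 156 FPKM in liver and 254 to 285 FPKM in kidney, with GOAT_ENSBTAP00000048807 the largest in heart and GOAT_ENSBTAP00000004810 in kidney. The other 8 members summed to 356 to 485 FPKM in heart, 85.5 to 134 FPKM in liver and 109.6 to 113 FPKM in kidney. Among these, GOAT_ENSBTAP00000020353 and GOAT_ENSP00000306328 had a gap in the alignment at the second residue, so their pair could not be read.

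The 7 members that aligned to no other summed to 262 to 360.2 FPKM in heart, 43.1 to 109 FPKM in liver and 103 to 170.5 FPKM in kidney. The heart value was mostly GOAT_ENSBTAP00000005730 (scaffold 392, 1170052 to 1180276, minus strand; 459 residues), at 326, 209 and 214 FPKM in heart, at 8.13, 9.24 and 16.3 FPKM in liver and at 30.6, 41.1 and 42.6 FPKM in kidney. Its log2 differences were 4.39 ± 0.29 for heart against liver (adjusted p = 1.657e-06), 2.66 ± 0.29 for heart against kidney (adjusted p = 4.833e-05) and -1.72 ± 0.29 for liver against kidney (adjusted p = 0.0007126). GOAT_ENSP00000261531, of 534 residues, was at 22.2 to 32.6 FPKM in heart, 14.6 to 31.7 FPKM in liver and 40.3 to 58.7 FPKM in kidney, and GOAT_ENSP00000417281, of 493 residues, at 12.0 to 24.1, 17.1 to 57.9 and 26.0 to 66.6 FPKM. Heart against kidney the latter differed by -1.20, past the threshold with the replicate block (adjusted p = 0.01278) and not in the main fit (adjusted p = 0.0507). It also passed with a common total (adjusted p = 0.01374), with the study's filter (adjusted p = 0.04468) and with copies left out (adjusted p = 0.04999). Leaving out heart 2, liver 1, liver 3 or kidney 1 took it past as well (adjusted p = 0.02194 to 0.04806). GOAT_ENSP00000370867 was listed at 0 in heart and was at 0.399 to 0.865 FPKM in liver and 0.0264 to 0.0904 FPKM in kidney, and goat_GLEAN_10010906 was listed at 0 in all 9 libraries.

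The rule does not take in the whole family. A further 22 goat models aligned to an aligned member without meeting the rule, 15 of them for having 1 motif match and 2 for having none. Their summed level was 298 to 383 FPKM in heart, 249 to 391 FPKM in liver and 302 to 339.7 FPKM in kidney, and these ranges overlapped. They were not examined further.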

How the data were processed

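Strand-specific mRNA libraries were sequenced from goat heart, liver and kidney, 3 per tissue. According to the study's methods and the processing notes, reads were mapped with TopHat to CHIR_1.0 and quantified with Cufflinks 2.2.1. The notes list the build UMD3.1 for the goat samples without a role. The authors deposited log2 values, log2(FPKM + 1), per goat model and library, and a file of goat proteins, from which positions, lengths and motif matches were taken. Of the 22131 models, 3915 had no protein in it and could not be screened.

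FPKM was obtained by undoing the log2 and subtracting 1. Groups and replicate numbers came from the sample titles. Proteins were compared with blastp 2.17.0 (E at most 1e-05, at least 50% of the query; 1e-10 for models outside the rule) and mafft 7.526. Differences were tested with limma 3.58.1 in R 4.3.3 (a mean per tissue over 9 libraries, eBayes with trend), tested on simulated data first. The rule for members reads protein sequence alone, but it and the lists were set with earlier results of these data known. Their counts and sums therefore carry no p. Named were the 5 members with the highest mean per tissue, the 6 with the largest difference per pair, those past no threshold and those at 0 in a whole tissue. The other members named were added after their values were seen.

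Same-numbered libraries deviated together from their tissue means (r = 0.146 to 0.472 in all 9 pairs), so the numbers were taken to pair libraries, and a fit with the replicate block was run. SEs, adjusted p-values and counts are from the fit without this pairing unless another setting is named. Other alternatives were the scaling, the pseudocount, the filter, single zeros, copies and leaving out each library. Lists of named transporters and tissue markers, and the identity of members by RefSeq protein, were not used here, since no protein table pairs these identifiers with names. Where labels do not say that libraries of a tissue came from separate animals, p-values measure only the spread between libraries. Genes with shared reads between close relatives are uncertain.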

Additional observations from a re-analysis of the deposited data

How the results depend on the processing

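Of the 75 member differences tested, 47 were called. Calls were also common over all 13634 models tested. For heart against liver, 29.6% of all models were called higher in heart and 19.6% in liver. For heart and kidney the shares were 17.9% and 45.3%, and for liver and kidney 13.4% and 51.6%. None of the 47 member calls changed sign under any alternative in which it was tested, and 35 were called under every alternative that tested them. Not every alternative tested all 47. The study's filter kept 38 of them, and members that passed only through liver were not tested when a liver library was left out. A scaling ended 11 calls and leaving out a single library ended 7, the cases named above among them. Of the 28 differences not called, 11 passed under median ratio scaling, 10 under quantile normalization and 8 with a common total. With the replicate block, 4 further differences were called, and it changed no other call. Calls over all models rose as well. For heart and liver they went from 4038 to 4453 and from 2673 to 3255. For heart and kidney they went from 2440 to 2648 and from 6181 to 6801, and for liver and kidney from 1825 to 2003 and from 7035 to 7668. For the counts of 15, 15 and 17 members called, requiring 3 motif matches left 13 members and counts of 8, 5 and 10, and their summed FPKM in heart, liver and kidney was 244, 258 and 239 in place of 5705, 815 and 604, because the most abundant members have 2 matches, and heart was then no longer highest. With every library brought to a common total the heart value was 4679, under median ratio scaling the liver value was 1101 and the kidney value 425, and for the aligned members alone, an alternative chosen after seeing the data, the kidney value was 466. Signs turned for differences not called. Of those described above, heart against kidney, GOAT_ENSBTAP00000021691 was at 0.02 under quantile normalization and GOAT_ENSBTAP00000028405 at 0.04 under median ratio scaling and 0.22 under quantile normalization; liver against kidney, the latter was at 0.71 and 0.70 under these, at 0.01 with a common total, and between -0.32 and 0.14 without single libraries. Under median ratio scaling, GOAT_ENSP00000385312, heart against kidney, turned from -0.12 to 0.48 and passed the threshold (adjusted p = 0.03797). Signs also turned there, without passing, for GOAT_ENSP00000342797, heart against kidney (0.29). The same held for GOAT_ENSBTAP00000031299 (0.59) and GOAT_ENSP00000417281 (0.45), liver against kidney. The identity of members by RefSeq protein was not run. Each tissue has 3 libraries, and without counts the depth cannot set a limit on the low members.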
